A study of Homo sapiens with 24 samples.

Results

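The mitochondrial genome genes described here are the 37 genes that the deposited count table places on the mitochondrial chromosome (MT), out of 61551 genes with usable counts. They are defined by that chromosome entry alone and by no measured value. Earlier results of these data were known when they were chosen. They comprise 13 protein-coding genes, 2 ribosomal RNA (rRNA) genes and 22 transfer RNA (tRNA) genes, carried by a circular genome of 16569 bases in the GRCh38 build. Bulk RNA sequencing (RNA-seq) was performed on H9, an established line of human embryonic stem cells (hESCs), in 4 genotypes and at 2 stages with 3 libraries per group, 24 libraries in all. The study asked which genes depend on HAR123, a short non-coding DNA element in an intron of SMG6 that changed rapidly in the human lineage. The hHAR123 genotype is wild type and keeps the human element, HAR123-KO cells have both copies deleted by CRISPR-Cas9, and in cHAR123 and mHAR123 cells the human element was replaced with its chimpanzee or mouse counterpart. The ESC libraries came from untreated stem cells. The ECTO libraries came from the same lines after neuroectodermal differentiation for 5 days in medium with 10% serum replacement, Noggin (500 ng/ml) and the TGF-beta receptor inhibitor SB431542 (10 µM). The libraries of a genotype came from a pair of clones. The labels do not tie a library to a clone, so the p-values below measure only the spread between these libraries, which may be technical in part. Since the element is non-coding, no gene count checks the deletion or the replacements.

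Mitochondria carry their own small, multi-copy genome, which is transcribed as long RNAs from both strands and cut into single messengers, rRNAs and tRNAs, often at the tRNAs that lie between the other genes. Its protein-coding genes give subunits of the respiratory chain complexes I, III and IV and of ATP synthase (complex V), and all other subunits of these complexes, and the whole of complex II, come from nuclear genes. Pluripotent stem cells rely strongly on glycolysis, and neural differentiation is known to alter mitochondrial number, form and use.

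Library totals ranged from 21022748 to 35198684 counts with a median of 25482501. Pluripotency markers fitted the stage labels: the summed level of 8 of them lay between 6835 and 7359 CPM (the usual depth-scaled unit, a gene's counts over all counts of its library) in the ESC libraries and between 1848 and 2514 CPM in the ECTO libraries. In the ECTO libraries 8 neuroectoderm markers summed to 2548 to 2819 CPM in hHAR123, cHAR123 and mHAR123 but to 1283 to 1312 CPM in HAR123-KO. At the same stage 6 neural crest markers summed to 1197 to 1208 CPM in HAR123-KO and 105 to 264 CPM in the other genotypes. Over all genotypes, 5 endoderm markers summed to 1.55 to 2.47 CPM in ESC and 47.8 to 55.3 CPM in ECTO libraries. The ECTO sums rest on few genes, as 2 of these 5 markers (3 in HAR123-KO) had at most 3 counts over the libraries of a group. The sums were 729 to 783 and 173 to 210 CPM for 6 surface ectoderm markers, and 17.4 to 21.7 and 68.1 to 96.6 CPM for 5 neuron markers. Those of 5 mesoderm markers stayed between 2.04 and 4.17 CPM. The ECTO columns labelled cHAR123 and mHAR123 go against the study's own gene lists, in which the levels given for cHAR123 at this stage match the mHAR123 columns and the reverse, while the ESC columns match their names. Values below follow the column labels, so "cHAR123" and "mHAR123" at the ECTO stage mean the libraries labelled so. Exchanging the names turns the ECTO values of one into those of the other. It also pairs their ESC libraries with other ECTO libraries, so their stage comparisons and interactions would change.

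The genes are packed closely, which bears on what a count of one gene can mean. Of the 13 protein-coding genes, 12 lie on the + strand and MT-ND6 alone on the − strand, and 12 have a tRNA gene as the next gene on at least 1 side. MT-ATP6 is the exception. It overlaps MT-ATP8 by 46 bases and MT-CO3 by 1 base, and MT-ND4L and MT-ND4 share 7 bases. These shared stretches are shown because reads in them belong to both genes, and how such reads were counted, and whether strand was used, is not given in the sources used here. The capitals mark the shared bases of MT-ATP8 and MT-ATP6 (MT:8507-8592, + strand, GRCh38) and of MT-ND4L and MT-ND4 (MT:10740-10786, + strand, GRCh38):
MT-ATP8 and MT-ATP6: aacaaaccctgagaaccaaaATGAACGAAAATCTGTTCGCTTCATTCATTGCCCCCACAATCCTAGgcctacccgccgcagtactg
MT-ND4L and MT-ND4: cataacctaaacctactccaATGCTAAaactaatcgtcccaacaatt

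MT-CO1 and MT-ND6 are the genes on which the stage comparison turns, and the first bases of their reading frames are shown to make their difference in base composition visible. MT-CO1 lies at MT:5904-7445 on the + strand and MT-ND6 at MT:14149-14673 on the − strand. Each is read 5′ to 3′ on its own strand, with the start codon in capitals (MT:5904-5993 for MT-CO1 and MT:14584-14673 for MT-ND6, GRCh38):
MT-CO1: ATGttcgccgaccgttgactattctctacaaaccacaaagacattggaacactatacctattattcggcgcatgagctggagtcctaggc
MT-ND6: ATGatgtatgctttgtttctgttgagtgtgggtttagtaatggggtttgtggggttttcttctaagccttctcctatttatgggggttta
Over its whole length MT-ND6 holds 35.6% G and 7.05% C. The 12 genes of the other strand hold 6.28 to 16.2% G and 29.5 to 35.98% C, so the messenger of MT-ND6 differs from all of them in this respect.

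The 13 protein-coding genes together held a smaller share of the counts after differentiation, and in both stages a slightly larger share in the edited genotypes than in hHAR123. In hHAR123 the 3 ESC libraries had 4.07%, 4.01% and 4.10% of all counts on these genes, with a mean of 4.06% ± 0.0422 (SD, n = 3), and the ECTO libraries 2.18% ± 0.0250. The ESC means of the other genotypes were 4.44% ± 0.0428 in HAR123-KO, 4.40% ± 0.0442 in cHAR123 and 4.39% ± 0.0896 in mHAR123. Their ECTO means were 2.60% ± 0.0480, 2.32% ± 0.0171 and 2.41% ± 0.0151 in the same order. The ranges of ESC and ECTO libraries did not overlap in any genotype, and the share at the ECTO stage was 0.538 times that of ESCs in hHAR123, 0.586 times in HAR123-KO, 0.528 times in cHAR123 and 0.550 times in mHAR123. Within a stage, the range of hHAR123 also lay below that of each edited genotype: the share was 9.23% larger in HAR123-KO, 8.30% in cHAR123 and 8.02% in mHAR123 at the ESC stage, and 19.0%, 6.26% and 10.54% larger at the ECTO stage. All comparisons with hHAR123 at a stage use the same 3 hHAR123 libraries. In bulk RNA, fewer mitochondrial transcripts per cell and a change in the mix of cells cannot be told apart, and a share falls also when other RNAs rise.

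**Figure D1:**
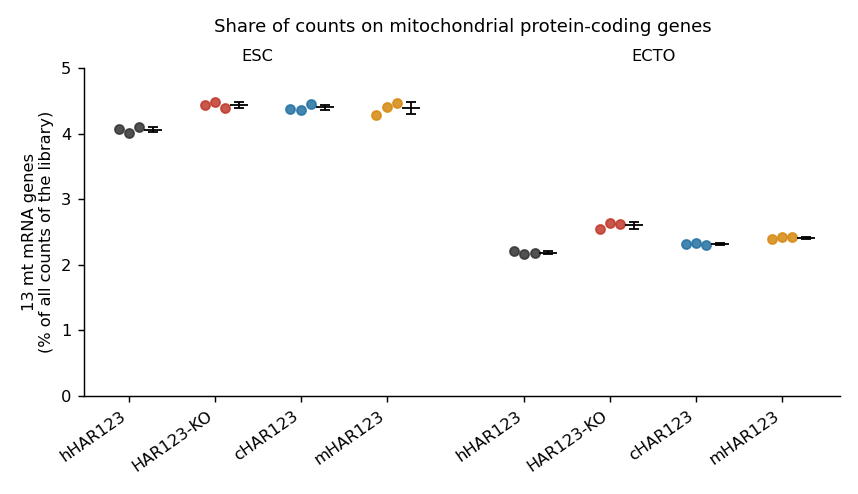
Share of all counts of a library (percent, y axis, from 0) that fell on the 13 mitochondrial protein-coding genes, by genotype and stage, with 1 point per library and the mean ± SD beside each group of 3. The ESC libraries sit between 4.01 and 4.48% and the ECTO libraries between 2.16 and 2.63%, with hHAR123 lowest at each stage.

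Levels were closely repeated between libraries: the SD of a gene's CPM within a group was 0.157 to 5.51% of its mean in the ESC groups and 0.106 to 9.71% in the ECTO groups. Per length, as CPM per kilobase of gene (RPKM), the levels of the 13 genes differed widely although most share a transcript. In hHAR123 ESCs the level per length was highest for MT-CO1 at 6313 ± 110 RPKM (SD, n = 3), followed by MT-ATP6 at 5854 ± 79.6, MT-CO2 at 5744 ± 69.0 and MT-CO3 at 5568 ± 36.2 RPKM. The ranges of MT-ATP6 and MT-CO2 overlapped, and the others were separate. The middle of the order was held by MT-ND1 (3829 RPKM), MT-ND4 (3256 RPKM), MT-ND2 (2725 RPKM), MT-ATP8 (2722 RPKM), MT-CYB (2203 RPKM), MT-ND4L (2078 RPKM) and MT-ND5 (1783 RPKM), among which only MT-ND2 and MT-ATP8 overlapped. MT-ND3 at 849 ± 17.7 RPKM and MT-ND6 at 735 ± 12.998 RPKM were the lowest. In hHAR123 ECTO libraries MT-CO1 was again first at 4749 ± 22.2 RPKM and MT-ND6 last at 180 ± 17.2 RPKM, and MT-CO3 (2662 RPKM) had moved to the next place above MT-ATP6 (2466 RPKM) and MT-CO2 (2432 RPKM).

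The comparison of ECTO with ESC libraries asks how the mitochondrial transcripts changed as the stem cells became neuroectoderm. All 13 protein-coding genes were lower in ECTO libraries in each of the 4 genotypes (edgeR quasi-likelihood test, adjusted p under 0.01), and no CPM range of ESC libraries overlapped that of ECTO libraries. Over all genes tested, the same test called 39.7% lower in hHAR123, 39.4% in HAR123-KO, 39.4% in cHAR123 and 39.5% in mHAR123, and 33.5%, 34.9%, 35.4% and 36.4% had lower ranges that did not overlap. The median log2 fold change of the 13 genes was −1.36 in hHAR123, −1.21 in HAR123-KO, −1.39 in cHAR123 and −1.33 in mHAR123, beside 0.05, 0.03, 0.04 and 0.03 over all genes. A log2 fold change below −1 was reached by 12 genes in hHAR123, 9 in HAR123-KO, 12 in cHAR123 and 11 in mHAR123, against 21.2%, 19.1%, 20.8% and 20.7% of all genes called lower by that rule.

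Complex I (NADH dehydrogenase) takes 7 of its subunits from the mitochondrial genome. MT-ND1, a membrane subunit near the site of ubiquinone binding, averaged 3660 CPM in hHAR123, 3911 in HAR123-KO, 3786 in cHAR123 and 3704 in mHAR123 ESCs, and 1501, 1814, 1631 and 1651 CPM in the ECTO libraries in the same order. MT-ND2 averaged 2839, 3113, 3087 and 3205 CPM in ESCs and 1278, 1411, 1348 and 1379 CPM in ECTO libraries. Both fell to between 33.5% and 40.4% of their ESC level. MT-ND3 averaged 294, 341, 307 and 308 CPM in ESCs and 142, 149, 137 and 130 CPM in ECTO libraries. MT-ND4L averaged 617, 754, 696 and 694 CPM in ESCs and 294, 375, 306 and 321 CPM in ECTO libraries. These short genes fell in all genotypes, by 1.35 to 1.42 on the log2 scale for MT-ND3 and by 1.21 to 1.39 for MT-ND4L. MT-ND4 averaged 4487, 4894, 5016 and 4879 CPM in ESCs and 2450, 2908, 2550 and 2678 CPM in ECTO libraries. MT-ND5 averaged 3231, 3452, 3525 and 3458 CPM in ESCs and 1857, 2084, 1999 and 1973 CPM in ECTO libraries. MT-ND4 and MT-ND5 fell less than the other complex I genes, to 44.1 to 51.8% and 46.9 to 52.6% of the ESC level.

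MT-ND6, the complex I gene of the other strand, fell more than the other 12 genes in every genotype. Its hHAR123 libraries held 378, 388 and 391 CPM in ESCs and 102, 84.7 and 96.9 CPM at the ECTO stage. The groups were far apart, and the log2 fold change was −2.32 ± 0.04 (SE), with an adjusted p of 1.3e-36 in edgeR's quasi-likelihood test. In HAR123-KO its ESC libraries held 376, 394 and 393 CPM and its ECTO libraries 115, 128 and 122 CPM (−1.88 ± 0.03 on the log2 scale, adjusted p = 2.3e-52). In cHAR123 it averaged 398 CPM in ESCs and 125 CPM at the ECTO stage (log2 fold change −1.87 ± 0.03, adjusted p = 4.9e-40), and in mHAR123 384 and 113 CPM (−1.93 ± 0.03, adjusted p = 1.2e-51). MT-ND6 thus kept 19.99 to 27.4% of its ESC level, with the deepest fall in hHAR123. Whether strand was used in counting is not given, so its counts here and below may include reads from the opposite strand.

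MT-CYB, the cytochrome b of complex III, averaged 2513 CPM in hHAR123, 2773 in HAR123-KO, 2770 in cHAR123 and 2815 in mHAR123 ESCs, and 1250, 1607, 1419 and 1425 CPM in the ECTO libraries. It fell to 40.6 to 50.5% of the ESC level.

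The 3 complex IV (cytochrome c oxidase) genes moved apart. MT-CO1, the catalytic subunit, had 9644, 9631 and 9931 CPM in the hHAR123 ESC libraries and 7353, 7286 and 7332 CPM in the ECTO libraries. The ranges did not overlap, yet the fall was the smallest of the 13 genes in each genotype: the log2 fold change was −0.70 ± 0.02 in hHAR123 (adjusted p = 4.2e-28). In HAR123-KO MT-CO1 averaged 10748 CPM in ESCs and 8600 CPM in ECTO libraries (−0.52 ± 0.02, adjusted p = 3.1e-33), in cHAR123 10424 and 7658 CPM (−0.65 ± 0.02, adjusted p = 3.5e-30) and in mHAR123 10474 and 8280 CPM (−0.51 ± 0.02, adjusted p = 3.9e-32), all by edgeR's quasi-likelihood test. It kept 61.4 to 70.3% of its ESC level. MT-CO2, which takes electrons from cytochrome c, averaged 3929, 4339, 4366 and 4466 CPM in hHAR123, HAR123-KO, cHAR123 and mHAR123 ESCs and 1664, 2164, 1816 and 1899 CPM in ECTO libraries, and kept 34.6 to 43.4%. MT-CO3 averaged 4365, 4647, 4487 and 4435 CPM in ESCs and 2087, 2463, 2150 and 2193 CPM in ECTO libraries, and kept 39.0 to 46.2%.

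Complex V takes its proton-channel subunit a from MT-ATP6 and a small peripheral subunit from MT-ATP8, and both genes fell strongly. MT-ATP6 averaged 3987, 4410, 4494 and 4438 CPM in ESCs of hHAR123, HAR123-KO, cHAR123 and mHAR123 and 1680, 2061, 1836 and 1877 CPM in ECTO libraries. MT-ATP8 averaged 563, 588, 623 and 605 CPM in ESCs and 220, 237, 232 and 226 CPM in ECTO libraries. MT-ATP8 kept 31.8 to 35.1% of its ESC level and MT-ATP6, which overlaps it, 34.4 to 40.7%.

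**Figure D2:**
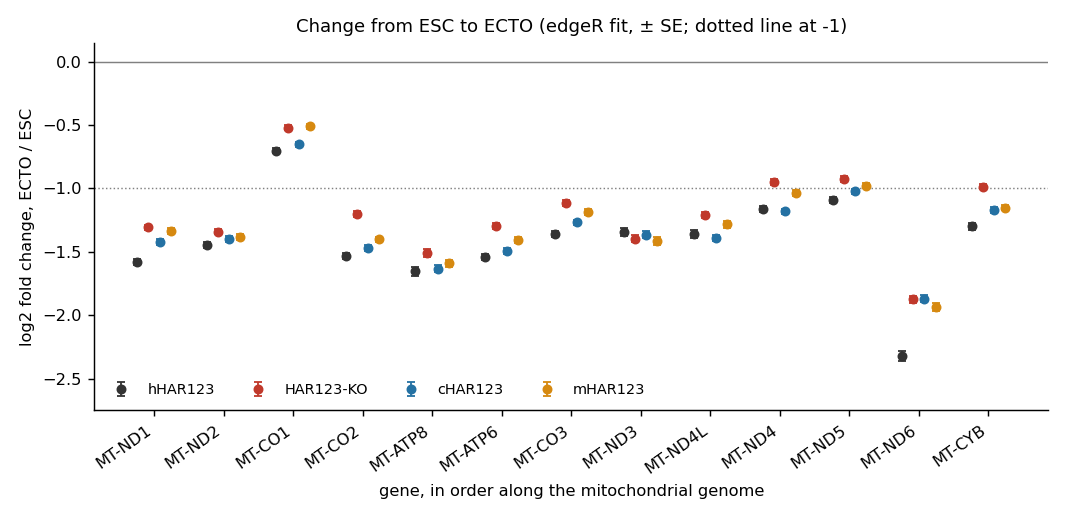
Log2 fold change of ECTO against ESC libraries (y axis, edgeR fit, points with SE bars) for the 13 protein-coding genes in genome order (x axis), with 1 colour per genotype and a dotted line at −1. All points lie below 0, from −0.51 for MT-CO1 in mHAR123 to −2.32 for MT-ND6 in hHAR123.

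Seen as parts of the mitochondrial messenger counts, the stage shifted the balance toward MT-CO1. MT-CO1 made up 23.97% ± 0.282 (SD, n = 3) of the counts of the 13 genes in hHAR123 ESCs and 33.5% ± 0.239 in ECTO libraries, and the same step was seen in HAR123-KO (24.2 to 33.1%), cHAR123 (23.7 to 33.0%) and mHAR123 (23.9 to 34.3%). MT-ND6 went from 0.951% ± 0.0196 to 0.433% ± 0.0369 in hHAR123, from 0.874 to 0.466% in HAR123-KO, from 0.904 to 0.541% in cHAR123 and from 0.876 to 0.469% in mHAR123. MT-ND5 was the other gene with a higher part at the ECTO stage in all genotypes, with 7.96% against 8.50% in hHAR123. MT-ND4 moved little, from 11.05% to 11.2% in hHAR123. Across the 13 genes, the log2 fold change went with gene length, with a Spearman rho of 0.698 in hHAR123, 0.780 in HAR123-KO, 0.742 in cHAR123 and 0.824 in mHAR123. Without MT-ND6 rho was 0.720 to 0.846 over 12 genes. These are descriptions across genes that share transcripts and libraries, and no p is given.

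**Figure D3:**
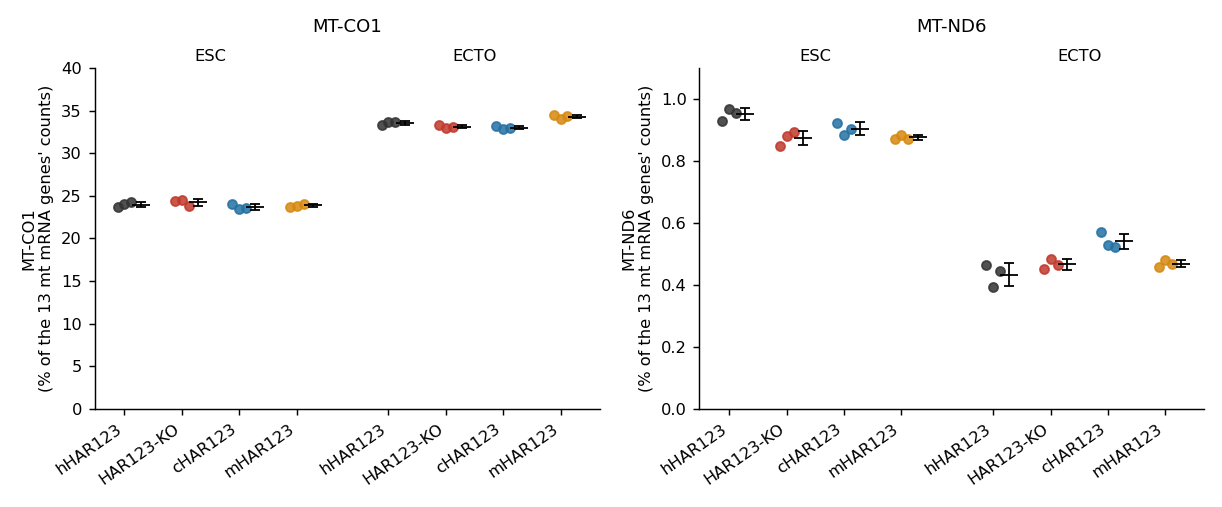
MT-CO1 (left) and MT-ND6 (right) as a percent of the counts of the 13 mitochondrial protein-coding genes (y axes, from 0) in each library, with the mean ± SD beside each group of 3. MT-CO1 sits at 23.5 to 24.5% in ESC and 32.9 to 34.5% in ECTO libraries, and MT-ND6 is lower in every ECTO library.

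The size of the fall depends on how libraries are scaled. The fit uses TMM scaling (trimmed mean of M values). With total counts in its place the median log2 fold change of all genes became 0.34 in hHAR123, 0.23 in HAR123-KO, 0.24 in cHAR123 and 0.20 in mHAR123. That of the 13 genes became −1.07, −1.01, −1.19 and −1.17. All 13 genes stayed lower in all genotypes under that scaling. The split of all calls into higher and lower moved in hHAR123 from 8983 and 8856 genes to 11195 and 7014 genes. MALAT1, an abundant nuclear non-coding RNA, moved with the stage, from 1218 to 1368 CPM in ESC libraries to 9008 to 14306 CPM in ECTO libraries. Its part in the result was not tested. Leaving it out with the cytoplasmic RN7SL1 changed no call of the 13 genes, but TMM trims extreme genes, so this step could hardly change them.

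The libraries were made with an rRNA depletion kit, and the counts of the rRNA genes were low. MT-RNR1, the small-subunit rRNA, had 69, 57 and 67 counts in the hHAR123 ESC libraries and 9, 20 and 14 counts in the ECTO libraries. MT-RNR2, the large-subunit rRNA, had 90, 93 and 95 and then 25, 19 and 16 counts. Both were lower at the ECTO stage in all genotypes (edgeR), with log2 fold changes of −1.91 ± 0.25 and −1.95 ± 0.21 in hHAR123, −2.78 ± 0.20 and −2.604 ± 0.17 in HAR123-KO, −3.08 ± 0.21 and −2.83 ± 0.20 in cHAR123 and −1.84 ± 0.28 and −1.71 ± 0.23 in mHAR123. Depletion can differ between libraries, and its part in these counts was not tested.

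Of the 22 tRNA genes, 2 (MT-TG and MT-TL2) had no count in any library, and 8 passed the low-count filter in each stage comparison. Mature tRNAs are short and heavily modified and are poorly captured by such libraries, so these counts do not measure their level. MT-TP, the proline tRNA gene of the − strand, had 155, 172 and 189 counts in hHAR123 ESC and 65, 87 and 76 counts in ECTO libraries, and its neighbour MT-TT, the threonine tRNA gene of the + strand, had 99, 85 and 98 and then 51, 66 and 55 counts. MT-TD, the aspartate tRNA gene, had 60, 58 and 71 and then 26, 34 and 23 counts. Of the 8 genes tested, 7 were lower at the ECTO stage in hHAR123, 6 in HAR123-KO, 6 in cHAR123 and 7 in mHAR123, beside 39.7%, 39.4%, 39.4% and 39.5% of all genes. MT-TP fell by 0.92, 1.36, 0.47 and 0.68 on the log2 scale in these genotypes and MT-TD by 0.93, 1.21, 0.98 and 1.43. MT-TT fell in hHAR123, by 0.46 ± 0.16 (adjusted p = 0.0075, edgeR), and had −0.03, −0.14 and 0.12 in HAR123-KO, cHAR123 and mHAR123 without passing the test. The difference between genotypes in MT-TT did not pass the test either (adjusted p = 0.14 for HAR123-KO, 0.45 for cHAR123 and 0.076 for mHAR123).

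The comparison of each edited genotype with hHAR123 asks what the element contributes. Each genotype came from its own pair of clones, so the element, the editing and the clones cannot be told apart here. In ESCs the differences were small and upward. In HAR123-KO 11 of the 13 protein-coding genes were higher and none lower (edgeR, adjusted p under 0.01), beside 7.06% of all genes called higher and 5.29% called lower, and 11 had ranges above those of hHAR123, beside 18.9% of all genes. MT-ND4L differed most: the hHAR123 libraries held 615, 599 and 638 CPM and the HAR123-KO libraries 760, 781 and 722 CPM. The ranges were separate, and the log2 fold change was 0.27 ± 0.02 (adjusted p = 1.2e-11). MT-ND6 differed least, with 378, 388 and 391 against 376, 394 and 393 CPM and a log2 fold change of −0.01 ± 0.03 (adjusted p = 0.78), and MT-ATP8 also did not pass (0.04 ± 0.03, adjusted p = 0.32). The median of the 13 genes was 0.11, beside 0.00 over all genes. The calls of MT-ND1, MT-CO3 and MT-ND5, at log2 fold changes of 0.07, were lost without hHAR123 ESC replicate 2 (adjusted p = 0.082, 0.066 and 0.069), without hHAR123 ESC replicate 3 (0.047, 0.023 and 0.016) and without HAR123-KO ESC replicate 1 (0.025, 0.030 and 0.019). Without HAR123-KO ESC replicate 3 the call of MT-ND1 was lost (0.014), and without replicate 2 that of MT-CO3 (0.011).

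In cHAR123 ESCs 9 of the 13 genes were higher and none lower, beside 7.72% of all genes called higher and 8.6% called lower, and 10 had ranges above hHAR123, beside 22.8%. MT-ND4L was again the largest, with 713, 681 and 695 CPM, all above the hHAR123 libraries, and a log2 fold change of 0.14 ± 0.03 (adjusted p = 3.6e-05, edgeR). MT-CO3 (4585, 4471 and 4406 CPM against 4379, 4333 and 4384 CPM) differed least, at 0.01 ± 0.02 (adjusted p = 0.80), and MT-ND6 had 0.01 ± 0.03 (adjusted p = 0.78). The count of 9 rested on single libraries: it was 4 without hHAR123 ESC replicate 2 and 5 without cHAR123 ESC replicate 3. In mHAR123 ESCs 7 genes were higher and none lower, beside 9.15% of all genes called higher and 9.91% called lower, and 8 had ranges above hHAR123, beside 25.5%. With 1 library left out the count of 7 became 5 to 9. MT-CO2 differed most, with 4413, 4495 and 4490 CPM against 3980, 3888 and 3919 CPM in hHAR123, and a log2 fold change of 0.15 ± 0.02 (adjusted p = 9.0e-09). MT-CO3 had −0.02 ± 0.02 (adjusted p = 0.53) and MT-ND6 −0.05 ± 0.02 (adjusted p = 0.14). No protein-coding gene reached a log2 fold change of 1 in any comparison of genotypes. NEAT1, a non-coding RNA of the nucleus, moved with these ESC comparisons, from 23.7 ± 0.760 CPM in hHAR123 to 37.1 ± 0.622 in HAR123-KO, 39.2 ± 1.15 in cHAR123 and 43.1 ± 1.26 in mHAR123. RN7SL1, a cytoplasmic RNA, had log2 fold changes of −0.20 in HAR123-KO, 0.03 in cHAR123 and −0.08 in mHAR123. The part of these RNAs in the result was not tested.

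At the ECTO stage HAR123-KO stood out further from hHAR123. All 13 protein-coding genes were higher (edgeR, adjusted p under 0.01), beside 24.2% of all genes called higher and 19.9% called lower, and 11 had ranges above hHAR123, beside 26.4%. The median log2 fold change of the 13 genes was 0.30, beside 0.00 over all genes. MT-CO2 rose most, from 1626, 1667 and 1698 CPM in hHAR123 to 2116, 2178 and 2197 CPM in HAR123-KO, which is 0.43 ± 0.02 on the log2 scale (adjusted p = 4.5e-21). MT-CYB, MT-ND6 and MT-ND4L followed at 0.41, 0.41 and 0.40. MT-ND6 held 115, 128 and 122 CPM against 102, 84.7 and 96.9 CPM, with 0.41 ± 0.04 (adjusted p = 1.6e-11). MT-ND3, with 141, 151 and 155 CPM against 145, 135 and 144 CPM, overlapped with hHAR123 and differed least, at 0.12 ± 0.04 (adjusted p = 0.0035). That call was lost without hHAR123 ECTO replicate 2 (adjusted p = 0.055), HAR123-KO ECTO replicate 2 (0.031) or HAR123-KO ECTO replicate 3 (0.066), and the call of MT-ATP8 (0.16 ± 0.04) without hHAR123 ECTO replicates 2 (0.018) or 3 (0.014) or HAR123-KO ECTO replicate 2 (0.019). The neural crest markers given above, 1197 to 1208 CPM in these HAR123-KO libraries and 105 to 112 CPM in hHAR123, moved with this comparison, as did MALAT1 (log2 fold change −0.46 ± 0.02) and RN7SL1 (0.18 ± 0.02), and their part in the result was not tested.

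In the libraries labelled cHAR123, 9 genes were higher and none lower at the ECTO stage, beside 5.9% of all genes called higher and 3.99% called lower, and 10 had ranges above hHAR123, beside 14.9%. In those labelled mHAR123, 11 were higher and none lower, beside 8.8% of all genes called higher and 5.21% called lower, and 11 had ranges above hHAR123, beside 14.7%. With 1 library left out, 6 to 11 genes were higher in cHAR123 and 10 to 12 in mHAR123. The range of MT-ND3 in mHAR123 (127, 129 and 133 CPM) lay below that of hHAR123, as did the ranges of 22.8% of all genes, without passing the test (−0.09 ± 0.04, adjusted p = 0.10). MT-ND6 differed most in both. It held 132, 124 and 120 CPM in cHAR123 and 110, 117 and 113 CPM in mHAR123, all above the 84.7 to 102 CPM of hHAR123, with log2 fold changes of 0.42 ± 0.04 (adjusted p = 3.8e-10) and 0.30 ± 0.05 (adjusted p = 3.1e-06, edgeR). MT-ND3 differed least in cHAR123, where 138, 142 and 132 CPM gave −0.03 ± 0.04 (adjusted p = 0.63). MT-ATP8 differed least in mHAR123, where 225, 233 and 220 CPM against 244, 205 and 209 CPM gave 0.08 ± 0.04 (adjusted p = 0.14). MT-ATP8 passed in both without hHAR123 ECTO replicate 1 (adjusted p = 2.1e-06 and 5.2e-04). The neural crest markers summed to 237 to 247 CPM in cHAR123 and 261 to 264 CPM in mHAR123 against 105 to 112 CPM in hHAR123, MALAT1 differed by −0.14 and −0.16 on the log2 scale and NEAT1 by −0.53 and −0.71, and their part in the result was not tested. The median of the 13 genes was 0.10 in cHAR123 and 0.17 in mHAR123, beside −0.01 over all genes in each.

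**Figure D4:**
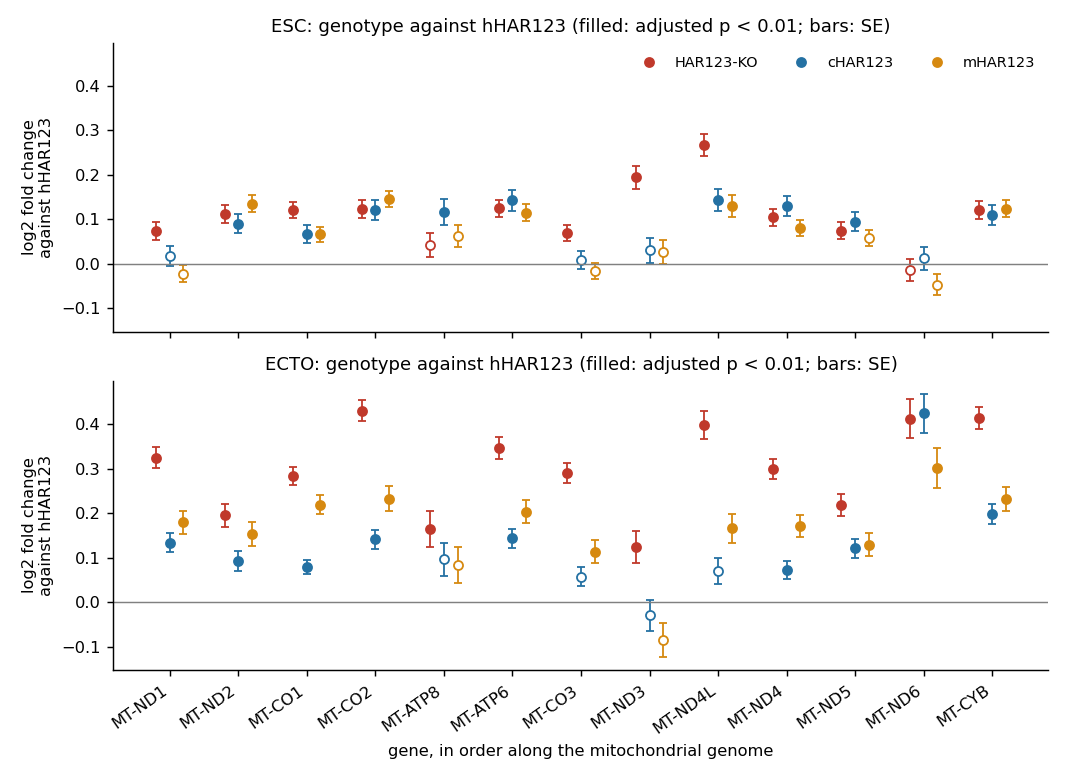
Log2 fold change of each edited genotype against hHAR123 (y axis, edgeR fit, bars are SE) for the 13 protein-coding genes in genome order, at the ESC (top) and ECTO (bottom) stage, with filled points at adjusted p under 0.01. The ESC values lie between −0.05 and 0.27, and the ECTO values of HAR123-KO between 0.12 and 0.43.

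Whether a genotype's difference from hHAR123 changed between the stages was tested by the interaction of genotype and stage over 12 libraries. In HAR123-KO the difference was more upward at the ECTO stage for 10 of the 13 genes and less so for none, beside 18.6% of all genes called upward and 13.9% downward. MT-ND6 had the largest interaction, 0.42 ± 0.05 (adjusted p = 3.4e-09, edgeR), and MT-ND3 the smallest, −0.08 ± 0.05 (adjusted p = 0.19). MT-CO2 followed MT-ND6 at 0.30 and MT-CYB at 0.29. In cHAR123 the test was passed by 2 genes, beside 5.64% of all genes called upward and 3.07% downward: MT-ND6 at 0.42 ± 0.05 (adjusted p = 4.6e-08) and MT-ND1 at 0.13 ± 0.03 (adjusted p = 0.0056). The smallest value there was −0.01 ± 0.05 for MT-ATP8 (adjusted p = 0.94). In mHAR123 it was passed by 8 genes, beside 9.06% of all genes called upward and 3.75% downward, with MT-ND6 largest at 0.37 ± 0.05 (adjusted p = 3.2e-07) and MT-ND2 smallest at 0.04 ± 0.03 (adjusted p = 0.41). MT-ND6, which did not differ detectably from hHAR123 in ESCs of any genotype, thus had the largest interaction in all of them, and the 3 tests share the 6 hHAR123 libraries. With the ECTO names of cHAR123 and mHAR123 exchanged, the counts were 6 genes for cHAR123 and 2 for mHAR123, and MT-ND6 had 0.31 and 0.49. The count for cHAR123 was 1 without hHAR123 ESC replicate 1, hHAR123 ECTO replicate 3 or cHAR123 ECTO replicate 2, and that for mHAR123 was 4 without hHAR123 ESC replicate 1 and 5 without mHAR123 ECTO replicate 2. With total counts in place of TMM, 8 genes passed upward in HAR123-KO, with the median of the 13 genes going from 0.19 to 0.12 and the calls of MT-ND4L (0.06, adjusted p = 0.27) and MT-ND5 (0.07, adjusted p = 0.048) lost. Under the same scaling 1 gene passed upward and 1 downward in cHAR123, where the median of the 13 genes turned from 0.02 to −0.03, and 2 upward and 1 downward in mHAR123, where it went from 0.11 to 0.01.

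Among the rRNA genes, MT-RNR1 had 92, 119 and 127 counts in HAR123-KO ESCs and 128, 110 and 112 in cHAR123 ESCs, against 69, 57 and 67 in hHAR123, and 56, 40 and 45 in mHAR123. The ranges of HAR123-KO and cHAR123 lay above hHAR123 also after division by depth, and the log2 fold changes were 1.01 ± 0.14 (adjusted p = 5.8e-07) and 1.08 ± 0.15 (adjusted p = 4.4e-07, edgeR). MT-RNR2 was higher in the same genotypes, by 0.88 ± 0.12 and 0.86 ± 0.13, beside 7.06% and 7.72% of all genes called higher. Neither rRNA gene passed in mHAR123 (−0.37 and −0.08) or in any genotype at the ECTO stage. The part of rRNA depletion, which can differ between libraries, was not tested here either. The difference in effect between the stages did not pass the test, with the smallest adjusted p of 0.020 for MT-RNR1 in cHAR123. No tRNA gene passed in a comparison of genotypes, among 8 tested at the ESC stage and 6 or 7 at the ECTO stage.

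Copies of mitochondrial genes in the nuclear genome limit what a count can be assigned to. Of 404 annotated copies, 7 had a mean of at least 100 counts, 6 of them in a cluster on chromosome 1 (629062 to 634922) and MTND4P12 on chromosome 5. MTATP6P1 is 98.5% identical to MT-ATP6 and held counts equal to 23.3 to 24.5% of those of MT-ATP6 in ESC libraries. MTND2P28 held 26.2 to 29.1% of the counts of MT-ND2 and MTCO1P12 14.2 to 15.3% of those of MT-CO1, which became 24.8 to 27.0% and 12.1 to 13.3% in ECTO libraries. The other 4 (MTND1P23, MTCO2P12, MTCO3P12 and MTND4P12) held at most 2.64% of the counts of their counterparts. Reads from a gene and a near-identical copy cannot be told apart with certainty, so these levels are uncertain. The counts on the copies do not bound by how much, because the treatment of reads that match several places is not given. The copies together amounted to 8.33 to 8.68% of the counts of the 13 genes in ESC and 7.79 to 8.27% in ECTO libraries, and adding them to their counterparts changed the call of 2 of 169 gene values.

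The nuclear genes for the same complexes show how far the rest of the machinery moved. Of 78 nuclear subunits of complexes I to V, 63 were lower and 5 higher at the ECTO stage in hHAR123, 57 and 6 in HAR123-KO, 57 and 8 in cHAR123, and 61 and 9 in mHAR123 (edgeR, adjusted p under 0.01), beside 39.7%, 39.4%, 39.4% and 39.5% of all genes called lower and 40.3%, 39.8%, 39.5% and 39.1% called higher. With total counts in place of TMM, 53, 46, 50 and 52 subunits were lower and 13, 13, 14 and 13 higher. Their median log2 fold changes were −0.74, −0.43, −0.47 and −0.53, smaller falls than the medians of the mitochondrial genes given above. In hHAR123 the largest changes among subunits with at least 10 CPM were in complex I NDUFS6, from 56.4 ± 0.312 to 16.4 ± 0.535 CPM (log2 fold change −2.07), and NDUFB10 (−1.75), in complex II SDHB (−1.66) and SDHD (−1.14), in complex III CYC1, the cytochrome c1 (−1.75), and UQCRC1 (−1.29), in complex IV COX8A (−1.57) and COX5A (−1.51), and in complex V ATP5MC1, from 34.95 ± 1.12 to 9.06 ± 1.23 CPM (−2.23), and ATP5F1D (−1.68). Complex II has no mitochondrial gene, and all 4 of its subunits were lower in hHAR123.

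**Figure D5:**
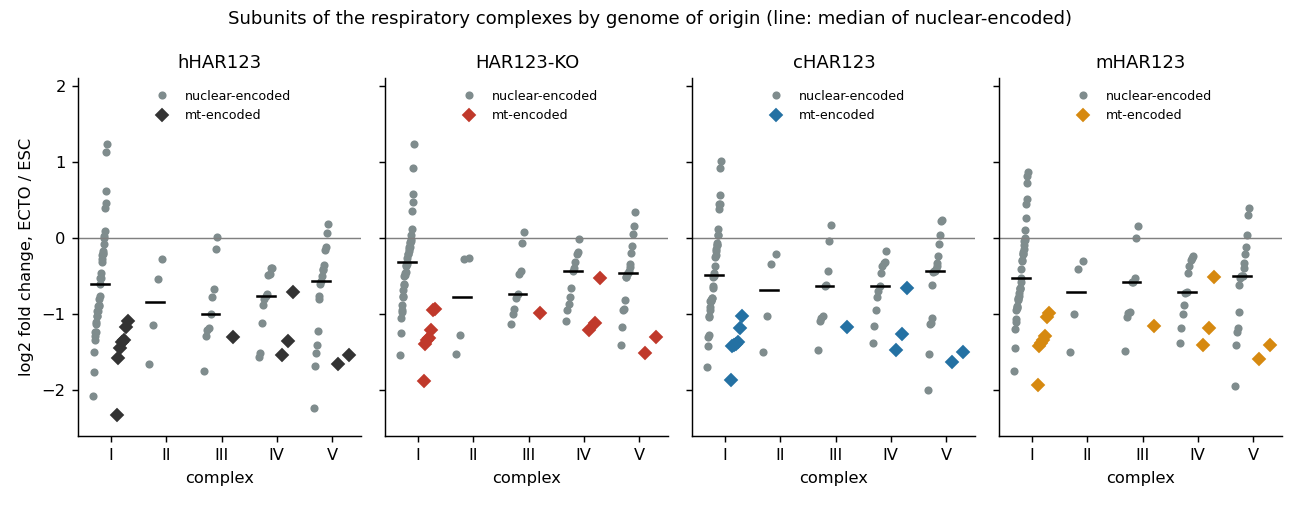
Log2 fold change of ECTO against ESC libraries (y axis) for nuclear-encoded (grey, with a line at their median) and mitochondrially encoded (coloured diamonds) subunits of complexes I to V (x axis), with 1 panel per genotype. The nuclear subunits spread from −2.23 to 1.24 in hHAR123, while all mitochondrial ones are below 0.

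Nuclear genes that serve the mitochondrial genome itself are read against 39.7% of all genes called lower and 40.3% called higher in hHAR123. Of 81 mitochondrial ribosomal protein genes tested, 69 were lower and 2 higher in hHAR123 with a median of −0.97, and MRPS34 (from 133 to 29.0 CPM) and MRPL4 (from 69.2 to 15.9 CPM) changed most. Of 19 genes of mitochondrial RNA processing and stability 15 were lower and 1 higher, with the largest changes in SLIRP (−1.76), which stabilises mitochondrial messengers, and TBRG4 (−1.57). Of 11 genes of mitochondrial DNA maintenance 8 were lower and 2 higher, with the helicase TWNK (from 52.0 to 16.1 CPM) and the topoisomerase TOP1MT (from 55.8 to 24.1 CPM) changing most among those with at least 10 CPM. Of 12 translation factors 7 were lower and 1 higher, among them TUFM (−1.63) and LARS2 (−1.14). The 9 transcription genes divided, 4 lower and 3 higher, close to the shares of all genes: POLRMT, the mitochondrial RNA polymerase, fell from 140 ± 3.81 to 55.6 ± 2.29 CPM (−1.62 ± 0.04) and MTERF2 rose from 6.61 ± 0.134 to 19.0 ± 0.164 CPM (1.23 ± 0.08). The 7 biogenesis regulators also divided, 4 lower and 2 higher, with the coactivators PPRC1 (−2.63) and PPARGC1B (−2.40) changing most among those with at least 10 CPM.

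In HAR123-KO against hHAR123 at the ECTO stage, 38 of the 78 nuclear subunits were higher and 3 lower, with a median of 0.19, beside 24.2% of all genes called higher and 19.9% called lower. ATP5MC1 (15.6 ± 1.35 against 9.06 ± 1.23 CPM), NDUFS7 (31.1 ± 2.18 against 19.9 ± 1.65 CPM) and COX8A (33.5 ± 1.14 against 21.995 ± 3.01 CPM) rose most in their complexes among genes with at least 10 CPM, and under that limit so did PPRC1 among the biogenesis regulators (65.6 ± 0.857 against 38.6 ± 1.38 CPM). In the libraries labelled cHAR123 and mHAR123 at that stage, 0 and 5 subunits were higher and 0 and 6 lower. Of all genes, 5.9% and 8.8% were called higher and 3.99% and 5.21% lower. Under total counts 0 and 1 subunits were higher and 1 and 8 lower, and with DESeq2 0 and 3 were higher and 0 and 2 lower. In ESCs no nuclear subunit passed as higher in any edited genotype, and 8 of the 78 were lower in HAR123-KO, 27 in cHAR123 and 28 in mHAR123, with medians of −0.04, −0.13 and −0.13, beside 5.29%, 8.6% and 9.91% of all genes called lower. These counts depended on the scaling, with 5, 12 and 9 lower under total counts and 6, 21 and 18 with DESeq2. NDUFB4 fell from 56.2 ± 1.83 CPM in hHAR123 to 46.0 ± 2.55 CPM in cHAR123 and 46.3 ± 3.37 CPM in mHAR123, and NDUFS6 from 56.4 ± 0.312 to 46.9 ± 4.36 and 47.6 ± 1.39 CPM. TFAM, which packages mitochondrial DNA and starts its transcription, was lower in the same ESCs, at 76.1 ± 2.84 and 77.2 ± 3.13 CPM against 85.4 ± 4.96 CPM in hHAR123. Of the 9 mitochondrial transcription genes, 1 passed as lower and 0 as higher in cHAR123 and in mHAR123 ESCs, beside 8.6% and 9.91% of all genes called lower. The difference in effect between the stages was upward for 39 of the 78 subunits and downward for 1 in HAR123-KO, for 15 and 0 in cHAR123 and for 18 and 1 in mHAR123. Over all genes 18.6%, 5.64% and 9.06% were called upward and 13.9%, 3.07% and 3.75% downward. Under total counts the subunits called upward were 32, 3 and 3 and those called downward 4, 0 and 1.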

How the data were processed

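RNA was depleted of rRNA with the NEBNext rRNA Depletion Kit v2 and made into directional paired-end libraries. The authors aligned reads with STAR 2.5.2b to GRCh38 (Ensembl 106 annotation) and deposited raw counts per gene from featureCounts. The strand setting and the treatment of reads that match several places are not given in the sources used here. One gene entry broken over 3 lines (ANK2) was left out. From the counts, CPM over the library total and RPKM over gene length were computed. Each pair of groups was fitted alone over all genes with edgeR 4.0.16 in R 4.3.3 (filterByExpr, TMM, glmQLFit and glmQLFTest, Benjamini-Hochberg adjustment over all genes tested). A gene passed at adjusted p under 0.01, and a differentially expressed gene also needed an absolute log2 fold change over 1. SE was derived from the F statistic as the size of the log2 fold change over the root of F. Shares and parts of counts are descriptions with no test. Alternatives were DESeq2 1.42.0, its size factors in edgeR, total counts without TMM, scaling over nuclear genes, no filter, a threshold of 0.05, 1 fit of 24 libraries, a replicate block and leaving out each library. Added after seeing the data were the addition of nuclear copies, leaving out MALAT1 and RN7SL1, and exchanging the ECTO names. The fit was tested on simulated data. All 13 protein-coding genes are named with their levels, and full statistics are given for the largest and smallest change of each comparison and for MT-ND6. Both rRNA genes and the 3 tRNA genes with the most counts are named, and of each nuclear list the 2 largest changes among genes passing the test with at least 10 CPM, in the comparisons described. Nuclear copies are named from a mean of 100 counts. The members and lists were chosen with earlier results of these data known. Sequences are from the GRCh38 mitochondrial chromosome.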

Additional observations from a re-analysis of the deposited data

Results flagged for a closer look

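The difference of a genotype from hHAR123 changed between the stages (interaction term, edgeR quasi-likelihood test, adjusted p under 0.01) for the following genes, all of them toward a higher level in the edited genotype at the ECTO stage. For HAR123-KO the interactions on the log2 scale were 0.25 for MT-ND1, 0.16 for MT-CO1, 0.30 for MT-CO2, 0.22 for MT-ATP6, 0.22 for MT-CO3, 0.13 for MT-ND4L, 0.19 for MT-ND4, 0.14 for MT-ND5, 0.42 for MT-ND6 and 0.29 for MT-CYB. For cHAR123 they were 0.13 for MT-ND1 and 0.42 for MT-ND6. For mHAR123 they were 0.22 for MT-ND1, 0.18 for MT-CO1, 0.11 for MT-CO2, 0.11 for MT-ATP6, 0.15 for MT-CO3, 0.11 for MT-ND4, 0.37 for MT-ND6 and 0.13 for MT-CYB. Leaving out 1 library ended the call of MT-ND4L in HAR123-KO for 8 of 12 libraries (adjusted p 0.012 to 0.038), of MT-ND1 in cHAR123 for 3 (0.010 to 0.029), and in mHAR123 of MT-CO2 for 8 (0.010 to 0.032), of MT-ATP6 for 8 (0.012 to 0.023), of MT-ND4 for 2 (0.013 to 0.017) and of MT-CYB for 1 (0.010). The calls of MT-ND6 were kept without any 1 library. With total counts in place of TMM the values for HAR123-KO were lower, for example 0.07 for MT-ND5, 0.06 for MT-ND4L and 0.35 for MT-ND6, and the calls of MT-ND5 and MT-ND4L were lost. Groups of 3 libraries were not tested for outlying samples.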

How the results depend on the processing

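No protein-coding mitochondrial gene value that passed the test turned its direction under any alternative. The rRNA, tRNA and single nuclear genes were not checked for this. All 13 genes stayed lower at the ECTO stage in each genotype under every setting, including each library left out. The replicate numbers do not pair the libraries: over 84 pairs with the same number the correlation of deviations was −0.218 to 0.244 with a median of −0.0067. With the replicate block 156 of 169 gene values kept their call, 10 lost it and 3 gained it, and 1 gene was lower in mHAR123 ESCs in place of 0. For the cHAR123 interaction 2 genes passed upward, 4 with DESeq2, 1 upward and 1 downward with total counts without TMM, and 6 with the ECTO names exchanged. For the mHAR123 interaction 8 passed, 2 upward and 1 downward without TMM, and 2 with the names exchanged. Leaving out 1 library gave 4 to 9 genes higher in cHAR123 ESCs, 5 to 9 in mHAR123 ESCs and 6 to 11 in cHAR123 ECTO libraries. It gave 1 to 3 for the cHAR123 interaction and 4 to 8 for the mHAR123 interaction. The log2 ratio of the share at the ECTO stage to ESCs in HAR123-KO was −0.77, and −0.72 without the 10 most counted nuclear genes. Per kilobase, the log2 ratio of the part of MT-CO1 was 0.60 in hHAR123, 0.56 in HAR123-KO, 0.60 in cHAR123 and 0.65 in mHAR123 (0.48, 0.45, 0.48 and 0.52 by counts), and that of MT-ND6 −0.79, −0.62 and −0.77 in the 3 edited genotypes (−0.91, −0.74 and −0.90 by counts). The cause was not tested. Of the counts for the lists of nuclear genes, 79 moved by over 1.5 times and 207 did not without TMM, and 42 moved and 244 did not with DESeq2. Without TMM the split of all genes into higher and lower moved for HAR123-KO ESCs from 1470 and 1103 to 1606 and 779, for cHAR123 ESCs from 1617 and 1800 to 1910 and 1022, for mHAR123 ESCs from 1934 and 2094 to 2419 and 1181, and for HAR123-KO ECTO libraries from 5162 and 4250 to 4431 and 5106, for mHAR123 ECTO libraries from 1867 and 1105 to 1280 and 1828, and for the interactions of HAR123-KO, cHAR123 and mHAR123 from 4292 and 3214 to 3456 and 3914, from 1316 and 716 to 669 and 995 and from 2146 and 889 to 869 and 1632. The medians of the 13 genes in those 5 comparisons of genotypes were then 0.13, 0.13, 0.11, 0.25 and 0.13.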
